A study of Mus musculus with 3 samples.

Results

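Neurotransmitter receptor genes were examined in a ChIP-seq survey of H2AK119ub, ubiquitinated histone H2A, in the tongue epithelium of newborn mice. They were taken by symbol: the GABA-A receptor subunits (Gabr), the AMPA, kainate and NMDA glutamate receptor subunits (Gria, Grik, Grin1 to Grin3), the metabotropic glutamate receptors (Grm), the glycine receptor alpha subunits (Glra), the nicotinic and muscarinic acetylcholine receptors (Chrn, Chrm) and the serotonin (Htr), dopamine (Drd) and adrenergic (Adra, Adrb) receptors, each followed by its subunit letter or number. This gave 96 of 21631 autosomal and X-linked protein-coding genes. Symbols that share a prefix without being receptors, such as the serine protease genes Htra1 to Htra4, were left out. The regions counted were those that named one of these genes or overlapped its bounds, 39 of 7838 in replicate 1 and 40 of 8093 in replicate 2.

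All samples came from control mice at postnatal day 0, with no treatment, mutant allele or transgene given in the labels. Tongues were cut to exclude the posterior circumvallate papillae, and cells positive for the epithelial surface protein EpCAM were sorted, described both as basal and as non-gustatory lingual epithelium. There were 2 H2AK119ub libraries, described as biological replicates, plus 1 library of input DNA (not analysed here). Regions were called separately in each H2AK119ub replicate and are listed with no height or count, so the depth is unknown, and presence, width and position are what can be described.

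H2AK119ub is laid down by Polycomb repressive complex 1, which keeps genes of other lineages silent and is recruited to many CpG-rich promoters. Receptors for neurotransmitters fall into ligand-gated ion channels, assembled from several subunits, and G protein-coupled receptors, each made by a single gene. Most serve neurons or muscle, while some adrenergic, muscarinic and nicotinic receptors are also known in keratinocytes.

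Of the 96 receptor genes, 19 were named for a promoter region in both replicates (19.8%, exact 95% binomial interval 12.4 to 29.2%), and these are called marked below. Among all protein-coding genes the share was 8.82%. The marked genes included most of the adrenergic receptors, 3 of the NMDA receptor subunits and the kainate subunit Grik3. They also included 1 of the 19 GABA-A subunits and none of the 4 AMPA or 4 glycine receptor subunits. These last counts cannot be told from 8.82%, with exact intervals reaching 26.0% for GABA-A and 60.2% for AMPA and for glycine. The same holds for every other class but the adrenergic and NMDA receptors, whose intervals began at 21.2% and 9.90%. A further 10 genes were named for a promoter region in 1 replicate only. Regions of any class lay over the bounds of 21 genes in both replicates (21.9%, interval 14.1 to 31.5%), against 13.3% of all protein-coding genes. Of the 96 receptor genes, 63 had neither a promoter region nor any region over them in either list. The same held for 16305 of the 21631 protein-coding genes, a larger share. Replicate 1 alone named 25 receptor genes for a promoter region (12.8% of all protein-coding genes), replicate 2 alone named 23 (12.4%), and 29 were named in at least 1 (16.4%). Regions over the gene bounds were found for 25 in replicate 1 (18.1% of all genes), 27 in replicate 2 (18.1%) and 31 in at least 1 (22.9%).

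The share of receptor genes was also above that of all genes under other rules. With only regions wider than the median of their list, 14 receptor genes were marked (14.6%, beside 6.31% of all genes). A region within 1000 bp of a start (of either gene end where no start was at hand) was found in both replicates for 19 (19.8%, beside 8.55%), and within 5000 bp for the same number (beside 11.6%). At least 10% of the gene was covered in both replicates for 14 (14.6%, beside 8.15%). The gap was narrower when naming by a region of any location class sufficed. That gave 20 genes in both replicates (20.8%, interval 13.2 to 30.3%, beside 15.3% of all genes). In at least 1 replicate it gave 32 (33.3%, interval 24.0 to 43.7%, beside 26.6%). Both of these intervals include the share of all genes. The intervals cover counting error only, genes of a cluster are not independent, and the difference from other genes was not tested.

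**Figure D1:**
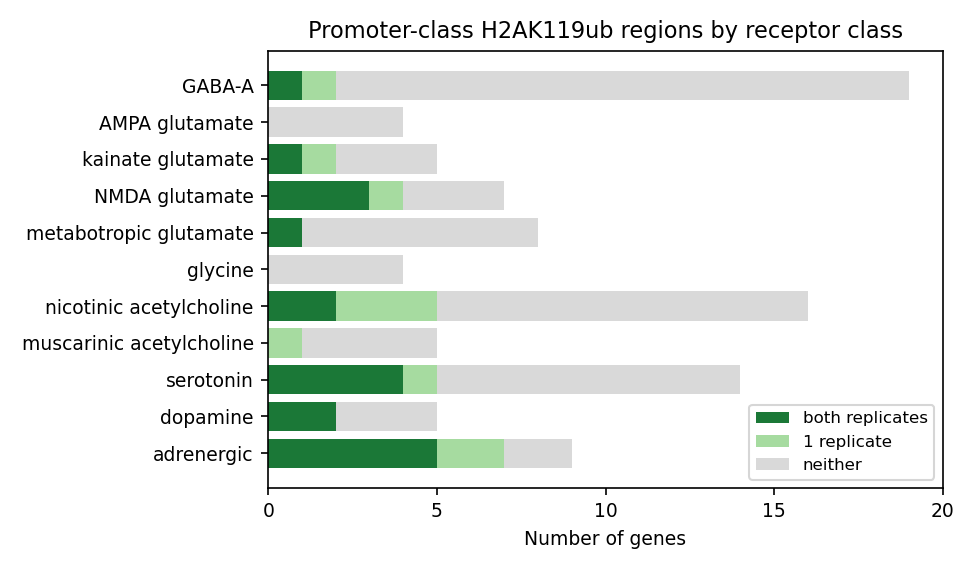
Number of receptor genes in each of 11 receptor classes whose promoter was named by an H2AK119ub region in both replicates, in 1 replicate or in neither (horizontal bars, stacked). Adrenergic receptors had 5 of 9 genes marked in both replicates, while GABA-A receptors had 1 of 19 (5.26%, beside 8.82% of all protein-coding genes).

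The promoters below show how differently the starts of these genes are built. Each line is the 250 bases just upstream of an annotated start, read 5′ to 3′ on the gene's own strand, from RefSeq (GRCm38.p6, the assembly that mm10 names), with every CpG dinucleotide in capitals. CG reads the same on both strands, and 93.6% of the 21045 promoter sequences of protein-coding genes held at least 1, with a median of 10. Grik3, Adrb1, Adra1b and Grin3b are marked genes, and Htr7 and Drd3 had no region.
Grik3, chr4:125490446-125490695, + strand: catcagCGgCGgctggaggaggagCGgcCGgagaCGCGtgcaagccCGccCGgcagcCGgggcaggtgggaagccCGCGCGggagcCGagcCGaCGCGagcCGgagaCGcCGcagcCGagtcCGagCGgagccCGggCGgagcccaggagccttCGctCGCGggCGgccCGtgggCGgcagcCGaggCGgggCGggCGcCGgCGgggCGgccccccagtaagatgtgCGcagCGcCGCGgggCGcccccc
Adrb1, chr19:56721867-56722116, + strand: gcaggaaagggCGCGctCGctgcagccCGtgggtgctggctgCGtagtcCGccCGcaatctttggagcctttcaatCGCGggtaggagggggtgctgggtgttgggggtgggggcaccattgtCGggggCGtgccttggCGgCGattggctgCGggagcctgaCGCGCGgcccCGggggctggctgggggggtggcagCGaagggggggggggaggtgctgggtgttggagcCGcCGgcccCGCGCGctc
Adra1b inner start, chr11:43836490-43836739, - strand: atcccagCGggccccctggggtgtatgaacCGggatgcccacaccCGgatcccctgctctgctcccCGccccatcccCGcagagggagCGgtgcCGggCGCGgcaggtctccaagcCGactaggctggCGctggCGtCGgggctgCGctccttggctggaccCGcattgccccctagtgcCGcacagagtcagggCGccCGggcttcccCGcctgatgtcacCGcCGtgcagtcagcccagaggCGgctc
Adra1b outer start, chr11:43901238-43901487, - strand: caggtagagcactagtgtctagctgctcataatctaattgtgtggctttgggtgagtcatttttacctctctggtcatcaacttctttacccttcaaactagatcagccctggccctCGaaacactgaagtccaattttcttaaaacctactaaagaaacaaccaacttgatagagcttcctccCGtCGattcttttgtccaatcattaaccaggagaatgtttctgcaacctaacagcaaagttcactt
Grin3b, chr10:79970474-79970723, + strand: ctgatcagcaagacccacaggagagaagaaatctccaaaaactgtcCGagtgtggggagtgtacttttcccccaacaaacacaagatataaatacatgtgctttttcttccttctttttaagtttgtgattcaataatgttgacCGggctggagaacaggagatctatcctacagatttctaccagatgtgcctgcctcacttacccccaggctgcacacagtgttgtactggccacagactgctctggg
Htr7, chr19:36057361-36057610, - strand: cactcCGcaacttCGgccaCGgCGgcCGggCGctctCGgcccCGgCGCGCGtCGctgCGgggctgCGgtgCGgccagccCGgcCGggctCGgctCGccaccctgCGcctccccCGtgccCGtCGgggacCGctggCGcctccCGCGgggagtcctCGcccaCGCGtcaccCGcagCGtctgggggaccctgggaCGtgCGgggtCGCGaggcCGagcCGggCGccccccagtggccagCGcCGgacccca
Drd3, chr16:43761971-43762220, + strand: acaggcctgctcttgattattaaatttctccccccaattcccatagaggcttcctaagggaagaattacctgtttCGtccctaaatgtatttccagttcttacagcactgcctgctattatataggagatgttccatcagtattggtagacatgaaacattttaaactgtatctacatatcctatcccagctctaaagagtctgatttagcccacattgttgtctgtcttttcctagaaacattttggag

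Grik3, which encodes a kainate receptor subunit, held 42 CpGs in this window, a count reached by 1.10% of promoters, and its promoter lay in 1 of the widest receptor regions. Adrb1, the beta-1 adrenergic receptor gene, held 24. Adra1b, an alpha-1 adrenergic receptor gene, has a pair of annotated starts, and its promoter region in both replicates covered the inner start with 22 CpGs, while the outer start with 3 CpGs lay 56.6 kb or more from it. A high CpG count did not always come with a region. Htr7, a serotonin receptor gene, held 41 CpGs, yet its nearest region lay 352 kb away in replicate 1 and 473 kb away in replicate 2. The dopamine receptor gene Drd5 (35 CpGs) and the nicotinic subunit gene Chrna7 (25 CpGs) also had no region over them. In the other direction, Grin3b was marked in both replicates with 2 CpGs in the window. Htr2a, also marked, held 4, but its region began 0.598 and 0.35 kb downstream of the start. The window of Htr2a therefore lay outside its region in both replicates. Drd3 held 1 CpG, and its nearest region lay 502 kb away. The table of promoter sequences covered 70 of the 96 receptor genes (72.9%), under the 80% set as a minimum, so marked and unmarked receptor genes were not compared in CpG content.

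Adrenergic receptors, the G protein-coupled receptors for adrenaline and noradrenaline, were the class with the highest share of marked genes, 5 of 9 (55.6%, exact interval 21.2 to 86.3%). Adrb1, known for raising heart rate, lay on chromosome 19 (56722117 to 56725150) inside regions of 19.2 kb in replicate 1 and 17.0 kb in replicate 2. Adra2a, the alpha-2A receptor gene that restrains noradrenaline release, lay on the same chromosome (54045259 to 54048982) in regions of 10.97 and 12.7 kb. Adra2b had regions of 11.02 and 8.23 kb. In all 3 the region reached past both ends of the gene in each replicate, so the whole gene was covered.

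Adra1a and Adra1b are longer and were covered in small part. Adra1a had promoter regions of 6.10 and 5.07 kb that covered 3.19% and 2.34% of its 136 kb. Adra1b had regions of 4.14 and 9.42 kb at its inner start, and replicate 1 alone also had a gene body region of 5.34 kb near the gene's 3′ end. Adra1d and Adra2c were named in replicate 2 only, with regions of 9.05 and 5.33 kb, and the nearest regions of replicate 1 lay 41.6 and 29.7 kb away. The region nearest to the beta-3 gene Adrb3, known from fat cells, lay 132 kb away.

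Among the 5 dopamine receptor genes, Drd1 and Drd4 were marked (40.0%, exact interval 5.27 to 85.3%). Drd1, the main receptor gene of the D1 type, lay on chromosome 13 (54051183 to 54055658) and was covered whole by regions of 10.5 and 7.05 kb. Drd4, on chromosome 7, was under regions of 5.78 and 9.59 kb that covered 92.8% and 100% of it. Drd2, the autoreceptor of dopamine neurons, had 1 gene body region (4.36 kb) in replicate 2, and the nearest region of replicate 1 lay 515 kb away. Drd3 and Drd5 had no region.

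Serotonin receptors had 4 of 14 genes marked (28.6%, exact interval 8.39 to 58.1%), all of them G protein-coupled. Htr1d, a presynaptic receptor gene, had promoter regions of 13.9 and 17.6 kb. Htr6 on chromosome 4 (139059706 to 139075570) had promoter regions of 12.7 and 10.2 kb and also gene body regions of 6.13 and 5.66 kb, which together covered 90.5% and 82.2% of the gene. Htr2a and Htr4 had the narrower regions, 2.84 and 4.09 kb and 4.64 and 5.90 kb. At Htr2a the region began 0.598 kb downstream of the annotated start in replicate 1 and 0.35 kb downstream in replicate 2, so the start itself was outside it in both. Htr1b was named in replicate 1 alone for a region of 1.86 kb that lay upstream of the gene and did not reach it. The channel subunit genes Htr3a and Htr3b had no region over them, the nearest lying 73.9 kb from Htr3a, and the region nearest to Htr1a, a serotonin receptor gene reported in taste buds, lay 388 kb away.

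NMDA receptors, the glutamate-gated channels that need glycine as co-agonist, had 3 of 7 subunit genes marked (42.9%, exact interval 9.90 to 81.6%). Grin2c on chromosome 11 (115249169 to 115267297) had regions of 19.7 and 23.6 kb, the widest of the class, that covered 67.1% and 100% of the gene. These regions also lay over the neighbouring gene Fdxr. Grin3b had regions of 12.9 and 6.29 kb that also lay over Wdr18. Grin1, the subunit that every NMDA receptor holds, had promoter regions of 5.99 and 4.73 kb, and replicate 2 had a gene body region of 5.12 kb beside it. Grin2d was named in replicate 2 only, for a region of 5.84 kb that also named Kdelr1. Grin2b, a subunit prominent in the developing forebrain, had no promoter region and a gene body region of 2.92 kb in replicate 2 alone. Grin2a and Grin3a had no region.

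Of the other glutamate receptors, Grik3 and Grm4 had the widest promoter regions. Grik3 on chromosome 4 had a promoter region that spanned 125479234 to 125505191 (26.0 kb) in replicate 1, and one that spanned 125478825 to 125499433 (20.6 kb) in replicate 2. A second block, in the distal class, lay 23.7 to 36.9 kb upstream of the start in replicate 1 as 1 region and between 23.2 and 37.1 kb upstream in replicate 2 as a pair of regions of 5.01 and 7.84 kb.

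Grm4, a metabotropic glutamate receptor gene that has been linked to umami taste, lay on chromosome 17 (27422387 to 27513826). It had promoter regions of 23.7 and 27.6 kb at one end and gene body regions of 34.2 and 36.0 kb at the other. The latter ranked 15 of 2153 and 4 of 2345 by width among the gene body regions of the lists. The covered share of this 91.4 kb gene was 45.6% and 53.7%. Of the 8 Grm genes, the other 7 had no region.

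At Grik4, most of the covered length lay in gene body regions. Replicate 1 had 5 gene body regions and a promoter region of 5.52 kb over the 427 kb gene, and replicate 2 had 5 gene body regions and no promoter region. Of the 5 gene body regions of replicate 1, 4 overlapped a region of replicate 2, the widest being 17.6 kb, matched by neighbouring regions of 13.5 and 3.37 kb. The shared part of these 4 ran from 12.2 to 93.1% of their length. Together the regions covered 9.38% and 6.35% of the gene. Grik1 and Grik2 had no region, and Grik5 was reached in replicate 1 alone by a promoter region that named a neighbouring gene.

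**Figure D2:**
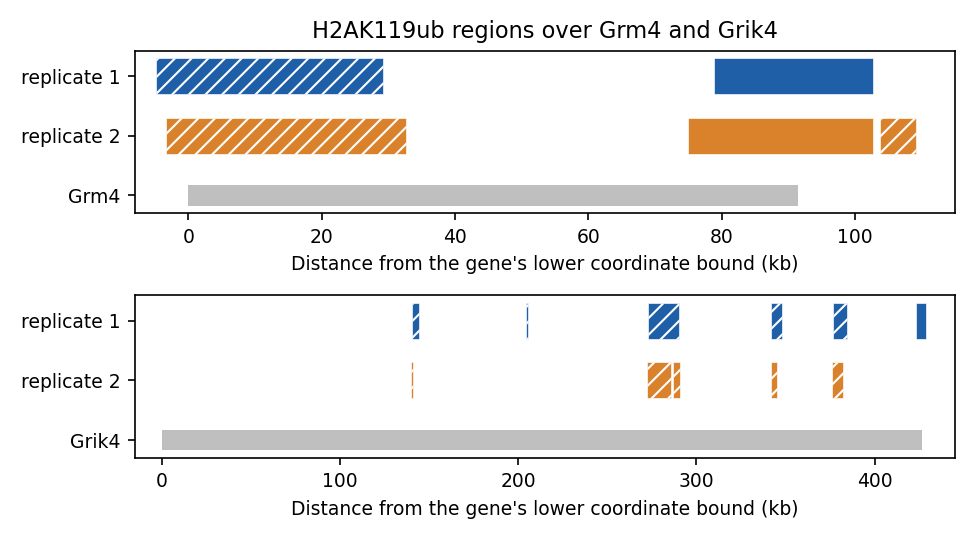
H2AK119ub regions over Grm4 (top) and Grik4 (bottom) in each replicate, against distance in kb from the gene's lower coordinate bound; solid bars are promoter-class regions, hatched bars other classes and grey bars the gene. Grm4 had a wide block at each end in both replicates. Of the 5 gene body regions of Grik4 in replicate 1, 4 overlapped a region of replicate 2, over 12.2 to 93.1% of their length.

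The 4 AMPA receptor subunit genes, which carry most fast excitatory transmission, had no region in either replicate. The nearest region to any of them lay 106 kb from Gria2 in replicate 2, and the one nearest to Gria4 lay 3211 kb away. With 4 genes, a count of 0 allows a share of up to 60.2% (exact 95% interval).

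Nicotinic acetylcholine receptors are channels of 5 subunits, of which one set serves skeletal muscle, another the autonomic ganglia and others the brain or the inner ear. Of 16 genes, 2 were marked (12.5%, exact interval 1.55 to 38.3%). In the muscle set, Chrnb1 on chromosome 11 was named for regions of 11.5 and 11.9 kb, but each of these regions named 4 genes, Fgf11 among them, and covered 2.81% and 1.63% of Chrnb1. Chrna1 was named in replicate 2 only, for a promoter region of 3.53 kb. Chrnd was named in replicate 1 only, for a region of 8.98 kb shared with Prss56 that ended 0.911 kb short of the gene. Chrne and Chrng, the adult and fetal subunits, had no region, the nearest lying 50.7 and 16.1 kb away in replicate 1.

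In the ganglionic set, Chrnb4 on chromosome 9 was marked by regions of 3.17 and 3.15 kb that shared 1.54 kb. Its neighbour Chrna3 had a region of 8.02 kb in replicate 1 only, and Chrna5, in the same cluster, had none. Chrna7, Chrna9 and Chrna10, which have been described in keratinocytes, had no region, the nearest lying 523, 178 and 285 kb away. Of the 5 muscarinic receptor genes none was marked. Chrm4 was named in replicate 1 for a region of 19.9 kb shared with Mdk, and in replicate 2 a region of 5.67 kb over part of the gene (21.7% of it) was assigned to Mdk alone. Chrm1 was reached by a distal region of 4.75 kb in replicate 1 alone. Chrm3, the muscarinic receptor gene of glands and smooth muscle, had no region, the nearest lying 1921 kb away.

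GABA-A receptors are the main inhibitory channels of the brain, and 1 of their 19 subunit genes was marked (5.26%, exact interval 0.133 to 26.0%). This was Gabrd, the delta subunit of receptors outside the synapse, with regions of 9.38 kb in replicate 1 and 3.35 kb in replicate 2 on chromosome 4. The regions of both replicates also lay over the adjacent gene Cfap74. Gabra2 was named in replicate 1 only, for a region of 2.13 kb at its start, while the nearest region of replicate 2 lay 1078 kb away.

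Many GABA-A subunit genes sit in clusters. On chromosome 5 the cluster of Gabrg1, Gabra2, Gabra4 and Gabrb1 spans 1399 kb and held the Gabra2 region of replicate 1 and nothing in replicate 2. The X cluster (Gabre, Gabra3 and Gabrq) had no region, the nearest lying 232 kb away. The region nearest to Gabrp, the pi subunit found in epithelia, lay 260.0 kb away. The 4 glycine receptor alpha genes had no region either. Across all classes 7 receptor genes lie on X, and 0 of them were marked, beside 1.66% of all protein-coding genes on X.

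The promoter regions of the marked genes ran from below to well above the usual width of the lists. The narrowest and widest in replicate 1 were those of Htr2a (2.84 kb) and Grik3 (26.0 kb), and those in replicate 2 were of Chrnb4 (3.15 kb) and Grm4 (27.6 kb). Their medians were 10.97 and 9.42 kb. Over all promoter regions that named a receptor gene, the median was 8.80 kb ± 0.82 (SD, n = 2), and over all promoter regions of the lists it was 8.08 and 6.84 kb. Of the 19 marked genes, 12 had a region wider than that list median in replicate 1, and 12 did in replicate 2. The sets are unlike, since marked genes need a call in both lists and are given by their widest region. The list medians also take in regions found in 1 replicate only. The 10 genes named in 1 replicate only had regions from 1.86 to 19.9 kb with a median of 5.68 kb, 6 of them in replicate 1 and 4 in replicate 2.

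**Figure D3:**
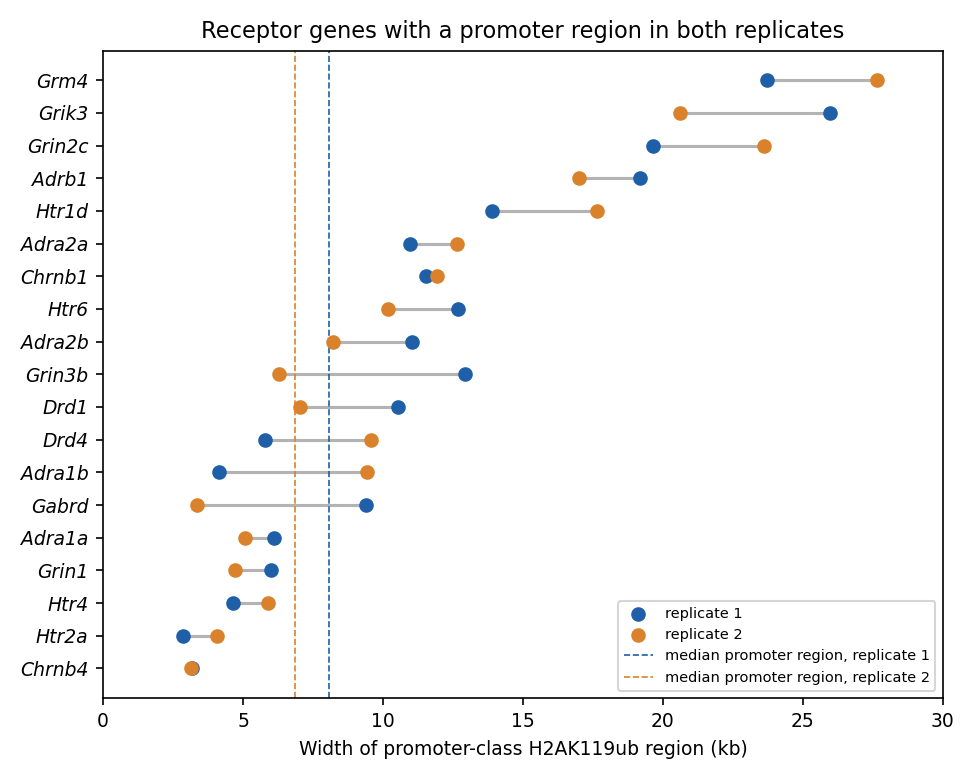
Width in kb of the widest promoter-class region naming each of the 19 marked receptor genes, in replicate 1 (blue) and replicate 2 (orange), with the median of all promoter regions of each list as a dashed line. Grm4, Grik3, Grin2c, Adrb1 and Htr1d were the widest by the mean of the replicates, and Gabrd, Adra1b and Grin3b differed most between replicates by ratio.

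In all 19 marked genes the promoter regions of the replicates overlapped, with the shared stretch making up a median of 66.9% of the stretch that either covered (range 32.1 to 94.4%). Marked genes are named in both lists by definition, so such overlap is built into their choice. Of all promoter regions naming a receptor gene, 80% in replicate 1 and 82.6% in replicate 2 overlapped a region of the other list. For all promoter regions the shares were 73.7% and 73.4%. Widths differed by less than 1.5-fold in 15 of the 19. The exceptions were Drd4 and Adra1b, wider in replicate 2, and Gabrd and Grin3b, wider in replicate 1. Across the 19 genes the widths of the replicates had a Spearman rho of 0.81 and a Pearson r of 0.87, given as a description since the genes share the same pair of libraries. Regions were wider in replicate 1 for 10 genes and in replicate 2 for 9. In 4 of the 19 genes (Gabrd, Grin3b, Chrnb1 and Grin2c) the stretch shared by the replicates also lay over another protein-coding gene, and in the other 15 it did not.

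Starts with a known strand were at hand for 15 of the marked genes. The region covered an annotated start in both replicates in 13 of them, the exceptions being Htr2a, where it began downstream in both, and Chrnb4, where it began 0.573 kb downstream in replicate 1 and 1.04 kb upstream in replicate 2. At the 13 genes the regions extended into the gene as well as upstream of it. The Chrnb1 region lay almost wholly upstream, reaching 11.2 and 11.8 kb upstream and 0.305 and 0.165 kb into the gene.

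**Figure D4:**
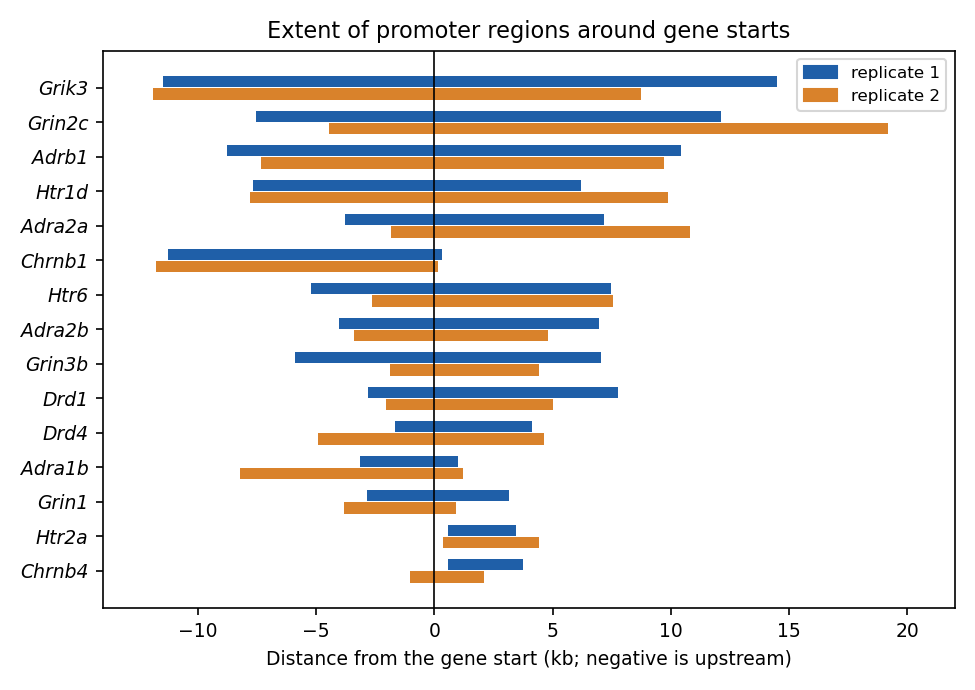
Extent of the promoter-class region around the gene start for the 15 marked receptor genes with a start of known strand, in kb, negative values being upstream; 2 bars per gene give replicate 1 (blue) and replicate 2 (orange), and for a gene with several starts the start nearest the centre of the regions is used. The regions of Htr2a begin downstream of the start in both replicates, and those of Chrnb1 lie almost wholly upstream.

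The share of marked genes was higher among short receptor genes than among long ones, a difference that was not tested. Of the 10 receptor genes of up to 5 kb, 5 were marked (Adra2a, Adra2b, Adrb1, Drd1 and Drd4) and Adra2c was named in replicate 2, while the other 4, Drd5, Htr1a and Chrne among them, were not named. Of all 4850 protein-coding genes of up to 5 kb, 7.65% were marked. Of the 37 receptor genes of up to 20 kb, 10 were marked (27.0%, exact interval 13.8 to 44.1%), against 8.82% of all protein-coding genes of that length. Between 20 and 100 kb it was 5 of 26 (19.2%, interval 6.55 to 39.4%) against 8.0%. Above 100 kb it was 4 of 33 (12.1%, interval 3.40 to 28.2%) against 11.3%. For regions over the gene bounds, the 33 long receptor genes had 5 (15.2%, interval 5.11 to 31.9%), while 26.0% of all genes above 100 kb did. The receptor genes have a median length of 38.7 kb, and protein-coding genes one of 17.3 kb.

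The split by length ran alongside the split by receptor type. Of the 39 G protein-coupled receptor genes, with a median length of 19.6 kb, 12 were marked (30.8%, exact interval 17.0 to 47.6%). Of the 57 channel subunit genes, with a median of 42.6 kb, 7 were marked (12.3%, interval 5.08 to 23.7%). The share of all protein-coding genes, 8.82%, lay within the interval of the channel genes and below that of the G protein-coupled receptor genes. The intervals of the 2 types were not tested against each other. These intervals overlap, and the part of gene length in the difference was not tested. In 4 marked genes, Adra2a, Adra2b, Adrb1 and Drd1, the whole gene was covered in both replicates, and in marked genes above 100 kb (Adra1a, Adra1b, Grik3 and Htr4) the covered share was 7.49% or less.

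**Figure D5:**
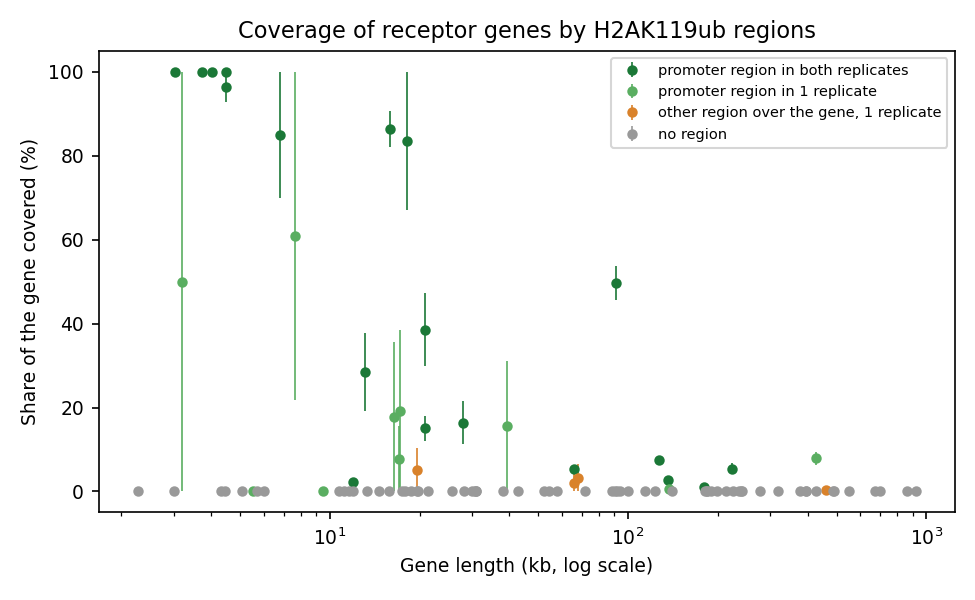
Share of each of the 96 receptor genes covered by H2AK119ub regions (%) against gene length (kb, log scale); points are the mean of the 2 replicates and bars run from the lower to the higher replicate. Genes covered whole in both replicates lie below 5 kb, and Grm4 at 91.4 kb stands apart at 45.6% and 53.7%.

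Receptor genes without any region lay far from the nearest one. For these 63 genes the median distance to the nearest region in either list was 293 kb, and 17 lay more than 1000 kb away. For the 16305 protein-coding genes without a region the median was 109 kb. Within 50 kb lay 6 of the 63.

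Partner genes of the same synapses, which make, move or anchor the transmitters and receptors, were counted in the same way. Of 71 such genes 16 were marked (22.5%, exact interval 13.5 to 34.0%), beside 8.82% of all protein-coding genes. Replicate 1 alone named 20 and replicate 2 alone 27, beside 12.8% and 12.4% of all genes. For acetylcholine 3 of 5 were marked, namely Ache, which encodes the enzyme that breaks it down (25.2 and 20.7 kb), and Chat and Slc18a3, which synthesise and load it and share a region of 12.4 and 8.44 kb. For GABA and glycine 3 of 8 were marked, among them the vesicular transporter gene Slc32a1 (21.3 and 24.97 kb) and the membrane transporter gene Slc6a5 (8.41 and 9.92 kb). The GABA synthesis gene Gad1 was named in replicate 2 only (15.1 kb).

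For monoamines 1 of 14 was marked, and Th, the gene of the first enzyme of dopamine synthesis, had no region over it. For glutamate 1 of 6 was marked, the uptake transporter gene Slc1a2 (12.3 and 9.65 kb). Of 5 related receptor subunit genes, 2 were marked, among them the delta glutamate receptor gene Grid1 (9.94 and 7.48 kb). Of 33 auxiliary and scaffold genes, 6 were marked, among them Cnih2, which escorts AMPA receptors (8.64 and 12.5 kb), and Lynx1, a nicotinic receptor modulator (2.52 and 3.29 kb). Slurp1, a secreted nicotinic ligand of keratinocytes, was named in replicate 2 only (14.9 kb). Among these groups of partner genes, the exact interval lay above 8.82% for acetylcholine alone (14.7 to 94.7%) and included it for the others.

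Marker genes of the sorted tissue and of other cell types were counted in the same way, beside 8.82% of all protein-coding genes. Of 8 genes of basal epithelium, 0 were marked (exact interval up to 36.9%), a list too short to tell from that share. Epcam, Krt14, Trp63, Col17a1 and Cdh1 had no region over them, Itga6 had one in replicate 1 and Itgb4 in both replicates, though neither was named for a promoter region, and Krt5 was named in replicate 2 only (14.9 kb). Of 6 taste cell genes, 0 were marked (exact interval up to 45.9%). Krt8 was named in replicate 2 (18.1 kb) and Plcb2 in replicate 1 (47.1 kb), both with a region over the gene in each replicate, and the other 4 had none. Of 10 neuronal genes, 4 were marked, among them Tubb3, Nefm and Prph (exact interval 12.2 to 73.8%). So were 2 of 8 skeletal muscle genes (Myod1 and Pax7, interval 3.19 to 65.1%) and 2 of 5 glial genes (Sox10 and Foxd3, interval 5.27 to 85.3%). The taste, muscle and glial lists are also too short to tell from 8.82%. Regions show where the mark was called, not expression, so they do not measure the purity of the sort, and the part of other cell types in the receptor results was not tested.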

How the data were processed

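H2AK119ub regions came from 1 deposited list per replicate, so they were called per sample. Per the file headers each entry has a chromosome, a first and last coordinate, a location class and gene names. The submitters' processing notes give, without a role, build mm10, Bowtie2 (2.3.3) and also SAMtools (0.1.19). For the peak caller, input use, class distances and coordinate base, the entry is: not given in the sources used here. Each library took 4 ng of DNA, as the labels' protocols state.

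Width was the last minus the first coordinate. Names were matched to RefSeq genes of GRCm38.p6 by symbol, then by a synonym held by 1 gene, and a promoter call also required the gene's own chromosome. Overlap with gene bounds counted from 1 bp. Shares carry exact (Clopper-Pearson) 95% intervals. Without a contrast between groups no test was run. Functions for calls, coverage and distance were tested on simulated data.

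The text names every gene with a promoter region in both replicates, up to 12 with one in 1 replicate, and a fixed set of muscle, ganglionic, epithelial and taste-related receptor genes, some of which are not reported here. Drd2, Grin2b, Grik5, Chrm1 and other genes it names were chosen after their values were seen. Members, lists and alternatives were chosen with earlier results of these data known. Software was Python 3.11.15 with pandas 2.3.3, numpy 2.4.6, matplotlib 3.10.9 and scipy 1.17.1.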

Additional observations from a re-analysis of the deposited data

How the results depend on the processing

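Of 23 alternative values, 18 stayed close to the value reported, meaning within 1.5-fold for counts and within 1 SD for the median width. Some of these could not move. Leaving out X could not change the count of marked genes, since 0 of them lie on X. Counting members of 1 region as 1 could not either, since no marked genes shared a promoter region. Allowing any location class (20, or 20.8%, beside 15.3% of all protein-coding genes) could only raise it. Counts in 1 replicate alone or in either could also only rise, and rules with a higher width or overlap limit could only lower them. The count of marked receptor genes (19) ran from 23 to 25 with either replicate alone and was 14 with regions above the median width, where Gabrd, Chrnb4, Adra1b, Htr2a and Htr4 were lost. It was 29 when either replicate sufficed, beside 16.4% of all protein-coding genes. All 19 were kept with regions within 1000 or 5000 bp of a start, which their choice by promoter class made likely. Receptor genes with a region over them (21) ran from 25 to 27 with 1 replicate alone and from 14 to 21 under other overlap rules. The median promoter width was 10.1 kb when only marked genes were counted, and 8.23 to 9.38 kb with 1 replicate alone, an alternative chosen after seeing the data. Partner genes (16) were the least stable, with 20 to 27 in 1 replicate alone (27 without replicate 1). They numbered 31 in either replicate, beside 16.4% of all protein-coding genes, and 10 with regions above the median width, beside 6.31%. The planned comparison of CpG content was not run because too few genes had a sequence. No paired analysis was possible because the 2 replicates form 1 group. Unknown depth means that a missing region cannot be told from one too weak to call.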
